A study of Homo sapiens with 10 samples.

Results

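The 38 genes described here are markers and mediators of cellular senescence and of the senescence-associated secretory phenotype, among 19974 protein-coding genes annotated on chromosomes 1 to 22 and X. They were taken as a named list, and a deposited peak was counted for a gene when it overlapped the GRCh38 gene body or the 2 kb on either side. DNA methylation had been profiled by methylated DNA immunoprecipitation and sequencing (MeDIP-seq), in which an antibody against 5-methylcytosine captures sonicated genomic DNA and captured fragments form peaks where methylated cytosines are dense. The cells were HEK293T, an established human embryonic kidney line that carries a viral large T antigen known to block the p53 and retinoblastoma routes to arrest, and the labels name no treatment that induces senescence. Each condition has 1 peak list and no replicate. The conditions are EV, KD (a knockdown of KCNQ1OT1_K per the series' design text; the list is named K-KD), K rep KO, K non-rep KO and WT. KCNQ1OT1 is a long non-coding RNA known for silencing imprinted neighbours of KCNQ1. What EV, K, rep and non-rep stand for is not said in the labels, nor whether a knockout line is 1 clone.

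Senescence is a lasting arrest of the cell cycle, held by cyclin-dependent kinase inhibitors such as p21 and p16 and accompanied by a loss of lamin B1 from the nucleus. Senescent cells secrete interleukins, chemokines, matrix proteases and growth factors, a programme driven in large part by the transcription factors NF-κB and C/EBPβ. Methylation of CpG dinucleotides at a gene's start often goes with silence of that gene, whereas methylation within the transcribed body is common in active genes.

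Across the 5 lists 197 peaks lay in the regions of these genes: 75 in EV, 31 in K-KD, 41 in K rep KO, 35 in K non-rep KO and 15 in the WT list. TIMP2, an inhibitor of matrix metalloproteinases, held 78 of them and ICAM1, an adhesion receptor for leukocytes, held 23. At the other end, 17 of the 38 genes had no peak in any list, among them IL6, IL1B, CXCL8 and all the other chemokines of the list. Those without a peak made up 44.7% of the genes, beside 21.9% of protein-coding genes.

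The number of genes with at least 1 peak was 20 in EV (52.6%), 11 in K-KD (28.9%), 11 in K rep KO (28.9%), 13 in K non-rep KO (34.2%) and 6 in the WT list (15.8%). The share of all protein-coding genes with a peak was 68.3% in EV, 55.5% in K-KD, 56.6% in K rep KO, 55.2% in K non-rep KO and 36.7% in the WT list. In each list the share among the 38 was therefore below that of protein-coding genes, and no test was made. The genes are also short, with a median length of 10.2 kb against 24.2 kb. Of the 18 genes up to 10 kb long, 2 had a peak in EV, against 48.7% of protein-coding genes of that length. Of the 20 longer genes, 18 had one, against 76% of the longer protein-coding genes.

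Per length the order was the opposite. The 38 regions held 6.96 peaks per 100 kb in EV, 2.88 in K-KD, 3.81 in K rep KO, 3.25 in K non-rep KO and 1.39 in the WT list. Protein-coding regions held 4.07, 2.37, 2.54, 2.3 and 1.08 peaks per 100 kb in the same order. Without TIMP2 the values were 5.09, 1.8, 2.2, 2.1 and 0.699, so that outside EV the remaining 37 genes lay below the protein-coding density. The plot of peak numbers by gene and list shows how unevenly the peaks were spread.

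**Figure D1:**
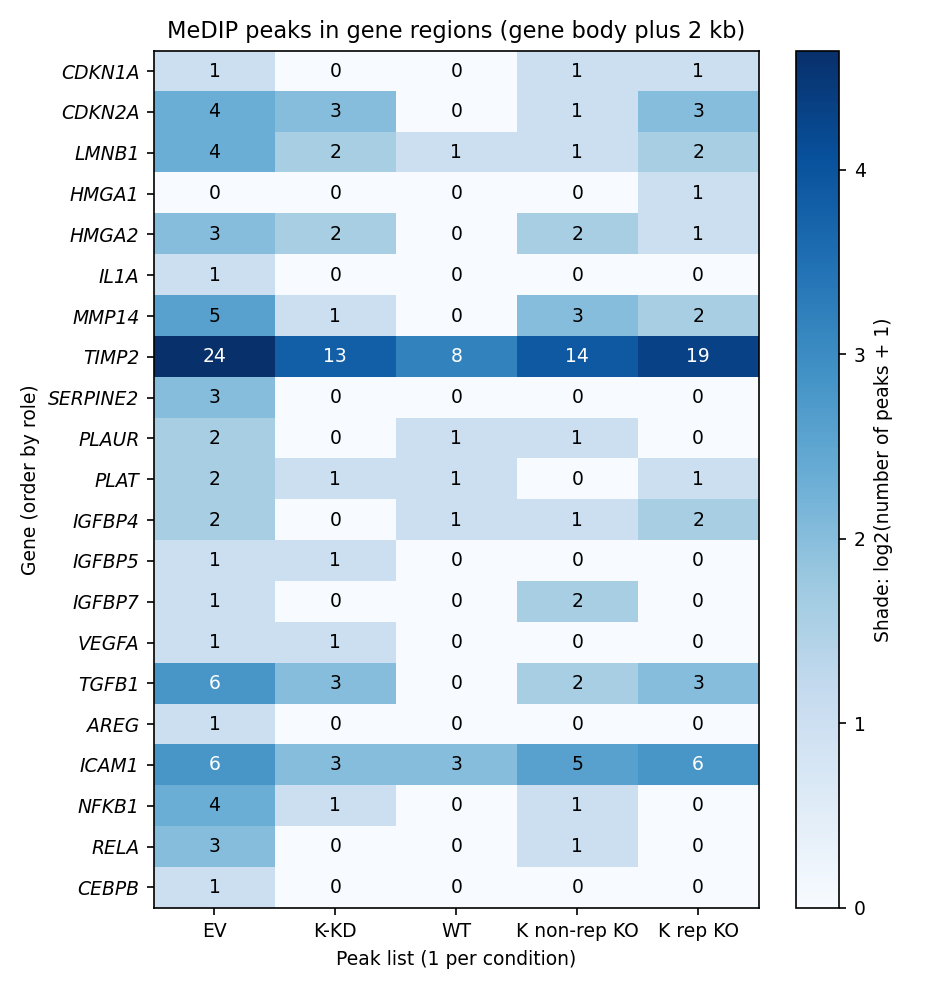
Number of MeDIP peaks in the region (gene body plus 2 kb) of each of the 21 genes with a peak in any list, by peak list, with genes ordered by role. Each cell gives the number, and shading follows log2 of the number plus 1; TIMP2 runs from 8 in WT to 24 in EV, and ICAM1 and LMNB1 are the other genes with a peak in every list.

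The lists themselves differ in length, and this touches every comparison of peak numbers below. On chromosomes 1 to 22 and X, WT held 30732 peaks, EV 87815, and the remaining lists between 53396 and 59098. Read depths are unknown, but the deposited fold enrichment and −log10 p at each summit return the number of fragments piled up there. In the 197 peaks this pileup ran from 6 to 32 with a median of 11, over a local background between 1.02 and 5.27, so each summit rests on few fragments. Fragments over the full width of a peak were not counted. The median fold enrichment of the peaks in the 38 regions lay between 3.98 in WT and 4.65 in K rep KO. A missing peak says only that a site did not pass the caller's threshold in that list. Input libraries and read-level data were not analysed here.

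Start sites were examined through RefSeq windows running from 250 bases before to 50 after each annotated start (assembly GRCh38.p14). There were 38 windows for 30 of the genes. HMGA2, CCL2, MMP1, MMP3, TIMP2, IGFBP7, VEGFA and PLAT had no entry. A peak overlapped the window of ICAM1 in all 5 lists, and that of MMP14, a membrane-bound collagenase, in EV. No other window had a peak in any list. Thus 2 of 38 windows had a peak in EV and 1 in each of the other lists. The background over 22132 windows of protein-coding genes was 4.39% in EV, 2.7% in K-KD, 2.62% in K rep KO, 2.1% in K non-rep KO and 0.705% in the WT list.

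A peak in all 5 lists was uncommon at start windows, with 71 of the 22132 (0.321%). The ICAM1 window holds 24 CpG dinucleotides, and of the 9700 windows with that many or more 0.155% had a peak in all 5 lists. The median CpG number was 22 in the windows of these genes and 21 in all windows. The upstream parts of 4 windows are printed in the direction of transcription, with each CpG in capitals, because they show the 2 starts with a peak and, beside ICAM1, 2 CpG-rich starts without one. ICAM1 (chr19:10270870-10271119, plus strand) has 23 CpG in these 250 bases and MMP14 (chr14:22836335-22836584, plus strand) has 7. CXCL1 (chr4:73869143-73869392, plus strand), a neutrophil-attracting chemokine, has 18. The CDKN2A start at the lower coordinate (chr9:21974858-21975107, minus strand), one of 2 in the table, has 20.
ICAM1: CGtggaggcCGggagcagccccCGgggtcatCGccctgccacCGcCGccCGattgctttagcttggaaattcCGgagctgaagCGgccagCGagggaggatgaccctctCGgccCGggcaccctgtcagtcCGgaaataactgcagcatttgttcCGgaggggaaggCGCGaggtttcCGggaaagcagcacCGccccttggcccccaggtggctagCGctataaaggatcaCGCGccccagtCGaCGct
MMP14: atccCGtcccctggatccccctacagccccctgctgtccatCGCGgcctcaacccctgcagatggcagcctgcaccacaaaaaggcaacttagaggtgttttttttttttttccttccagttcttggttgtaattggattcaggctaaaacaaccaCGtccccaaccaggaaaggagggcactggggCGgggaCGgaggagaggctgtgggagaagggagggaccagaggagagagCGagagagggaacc
CXCL1: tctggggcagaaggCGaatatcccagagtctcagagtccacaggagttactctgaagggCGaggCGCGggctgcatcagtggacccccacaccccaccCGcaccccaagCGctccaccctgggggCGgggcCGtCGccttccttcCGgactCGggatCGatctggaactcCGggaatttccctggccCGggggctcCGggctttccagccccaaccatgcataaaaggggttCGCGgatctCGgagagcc
CDKN2A: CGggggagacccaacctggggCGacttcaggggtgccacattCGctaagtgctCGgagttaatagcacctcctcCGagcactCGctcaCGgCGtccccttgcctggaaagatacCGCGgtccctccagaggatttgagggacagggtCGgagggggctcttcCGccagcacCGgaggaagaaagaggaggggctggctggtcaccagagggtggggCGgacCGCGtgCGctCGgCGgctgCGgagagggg

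**Figure D2:**
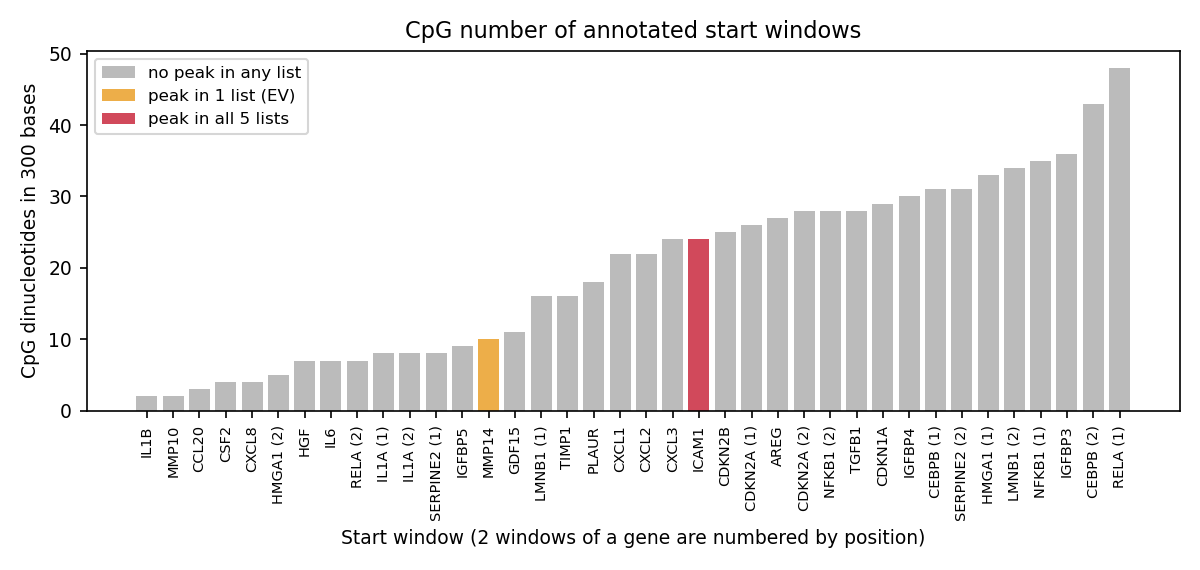
CpG dinucleotides in each of the 38 RefSeq start windows of 300 bases (vertical axis), sorted by number along the horizontal axis and shaded by the number of lists with a peak. The ICAM1 window with 24 CpG is the one with a peak in all 5 lists, MMP14 with 10 has one in EV, and windows with up to 48 CpG have none.

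The consensus motif of NF-κB, searched on both strands, was found in 7 of the 38 windows (18.4%) and in 6.53% of all windows. The 7 were IL6, CXCL1, CXCL2, CXCL3, CCL20, IGFBP5 and an NFKB1 window. None of these 7 windows had a peak in any list, where 6.85% of all windows had one, so with 7 windows this says little. The ICAM1 window had no match to the consensus as searched. A missing match does not show that a window lacks a binding site, since a site may depart from the consensus. A match is a description of the sequence and not a measured binding site.

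Among the cell cycle inhibitors and nuclear markers of arrest, 5 of 6 genes had peaks. The other, CDKN2B, had none in any list, as did 21.9% of protein-coding genes. CDKN2A, which encodes the inhibitor p16INK4a and, from a second start, ARF, had 4 peaks in EV, 3 in K-KD, 3 in K rep KO, 1 in K non-rep KO and 0 in the WT list. Every list except WT had a peak in the flank at chr9:21965389-21965968, which lies beyond the end of the gene at the lower coordinate, and fold enrichment there ran from 3.07 in K non-rep KO to 7.14 in K rep KO. The peak of highest −log10 q in CDKN2A was an EV peak at chr9:21989627-21990262 with a fold of 8.63 and a pileup of 20. It lies within the gene, 5.55 kb after the distal start, and overlaps an annotated lncRNA. K rep KO had a peak of fold 5.09 at the same place. At the gene's end, peaks of EV, K-KD and K rep KO merged into a region at chr9:21967221-21969805, with folds between 3.9 and 5.34 and no base common to the 3 lists, and part of it overlaps CDKN2A-AS1. Neither CDKN2A start window had a peak, and CDKN2B, the neighbouring gene for the inhibitor p15INK4b, had none in its region.

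LMNB1, which encodes lamin B1, had 4 peaks in EV, 2 in K-KD, 2 in K rep KO, 1 in K non-rep KO and 1 in the WT list. A stretch of 1966 bases inside the gene (chr5:126784316-126786281), between 7180 and 9145 bases after the later of its 2 annotated starts, was covered by a peak in all 5 lists. Fold enrichment at these peaks was 7.06 in EV, 4.56 in K-KD, 5.77 in K rep KO, 4.64 in K non-rep KO and 4.59 in the WT list. The pileups were 22, 15, 16, 14 and 17 fragments in that order. The block was thus present whether a list was long or short. The other LMNB1 peaks were held by single lists: 3 weaker peaks farther into the gene in EV, and 1 in the flank before the start in K rep KO. The remaining K-KD peak, at 5.98 kb after the start, overlapped the wide K non-rep KO peak.

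CDKN1A, the gene for p21, had 1 peak each in EV and both knockout lists and none in K-KD or WT. Its peak of highest −log10 q was in EV at chr6:36683990-36684515, 5.4 kb into the gene, with a fold of 5.93, and the K non-rep KO peak overlapped it. HMGA2, a chromatin architectural protein that accumulates in senescent nuclei, had 3 peaks in EV, 2 in K-KD, 1 in K rep KO, 2 in K non-rep KO and 0 in the WT list, all inside its 142 kb body. The highest of these in −log10 q was an EV peak of fold 6.63 at chr12:65888691-65889011. HMGA1, its paralogue, had a single peak, in the K rep KO list, in the flank before the start.

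The interleukins, chemokines and colony-stimulating factor were nearly bare of peaks. Of 10 genes, IL1A, an upstream cytokine of the secretory programme, had 1 peak in EV, at chr2:112776583-112776995, 7.48 kb into the gene. IL1B, IL6, CXCL8, CXCL1, CXCL2, CXCL3, CCL2, CCL20 and CSF2 had none. These genes are short, with a median length of 2.77 kb. Of protein-coding genes up to 10 kb long, 40% had no peak in any list. For CXCL8 the nearest peak of any list lay 2.82 kb from the gene body, for CSF2 3.92 kb, for IL6 22.6 kb, and for CXCL1 70.9 kb. The CXCL1 distance was 70.9 kb in each of the 5 lists. The genes therefore differed in how close a peak came, from just outside the counted flank to a distance many times the length of the gene.

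The matrix proteases, their inhibitors and the plasminogen system held the most peaks of the 6 role groups, 36 in EV, 15 in K-KD, 22 in K rep KO, 18 in K non-rep KO and 10 in the WT list, and most of them were in TIMP2. TIMP2 had 24 peaks in EV, 13 in K-KD, 19 in K rep KO, 14 in K non-rep KO and 8 in the WT list. It made up between 32% of the peaks of the 38 regions in EV and 53.3% in WT. Its region was covered by peaks over 21.5% of its length in EV, 9.8% in K-KD, 15.5% in K rep KO, 10.5% in K non-rep KO and 4.72% in the WT list. As many peaks or more were found in 0.916% of protein-coding genes in EV, 1.33% in K-KD, 0.616% in K rep KO, 1.02% in K non-rep KO and 0.776% in the WT list. TIMP2 was therefore near the top of all genes by peak number in every list, but it is also long, at 72.4 kb. By density in EV, 3.14 peaks per 10 kb, 4% of protein-coding genes were at least as dense.

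Merged across the lists, the TIMP2 peaks fell into 38 regions, of which 18 were held by 1 list. The merged region at chr17:78914010-78915831 held a peak from each list, with folds of 7.06 in EV, 6.11 in WT, 6.64 in K non-rep KO, 6.4 in K rep KO and 4.14 in K-KD. No base of it was common to all 5, because the WT peak ended before those of the K-KD and knockout lists began. The EV peak with the largest pileup in the 38 regions was in TIMP2 at chr17:78869568-78871896, with 32 fragments and a fold of 7.58. The wide peaks of the other lists there, which share 1231 bases with it, had folds of 6.94 in K non-rep KO, 5.99 in K rep KO and 3.28 in K-KD, and WT had none. Just beyond the end of the gene at the higher coordinate, EV, K-KD and K rep KO shared a peak (chr17:78926579-78927003 in common) whose summits lay within 4 bases of each other. Its fold was 4.62 in EV, 4.84 in K-KD and 9.06 in K rep KO, the highest of the K rep KO peaks in the 38 regions. A peak in 4 lists, all but WT, was also found at chr17:78887144-78888748, with folds from 2.39 to 5.79, and at chr17:78919580-78920481, with folds from 2.86 to 6.36. WT shared a region with EV and K rep KO at chr17:78859321-78859939 and chr17:78902637-78903211, with EV and K-KD at chr17:78904531-78905157, and with both knockout lists at chr17:78891624-78892366. Regions held by 3 lists without WT lay at chr17:78851611-78852647 (EV, K-KD and K non-rep KO) and chr17:78855304-78856472 (K-KD and both knockouts). Thus the WT peaks of TIMP2 mostly lay where another list also had one, without a single partner list. Part of TIMP2 overlaps the gene CEP295NL and a lncRNA, and a peak there cannot be assigned to one of them.

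**Figure D3:**
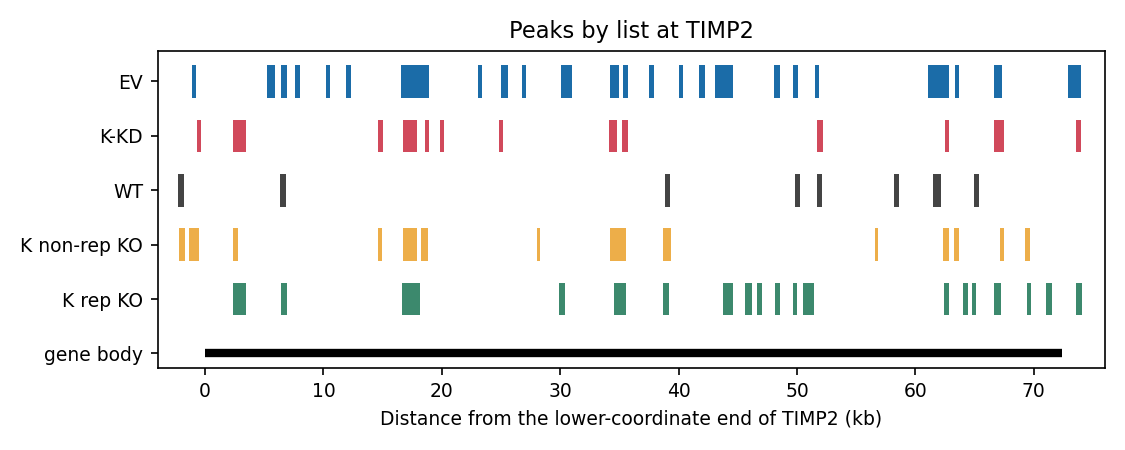
Positions of the 78 TIMP2 peaks by list, as distance in kb from the gene's end at the lower coordinate, with the gene body as a black bar; each coloured block is 1 peak drawn to scale. Peaks of EV (24) and K rep KO (19) are spread over the gene and the 8 WT peaks are the fewest.

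MMP14 had 5 peaks in EV, 1 in K-KD, 2 in K rep KO, 3 in K non-rep KO and 0 in the WT list. The EV peak over its start (chr14:22836176-22836701) had its summit 30 bases after the start, a fold of 5.3 and a pileup of 12. A region early in the gene (chr14:22837627-22838378) carried a peak in every list but WT, with folds between 3.68 in EV and 4.46 in K rep KO. A later one (chr14:22844960-22845706) was held by EV and both knockout lists, with folds between 3.29 and 4.11. MMP14 had the densest peaks of these genes in EV, at 3.3 per 10 kb, against a median of 0.36 over protein-coding genes.

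SERPINE2, an inhibitor of serine proteases, had 3 peaks, all in EV. The strongest by −log10 q was at chr2:224004068-224004605 with a fold of 4.68, and another had its summit 125 bases after the later start without reaching the start window. PLAUR, the urokinase receptor, had 2 peaks in EV, none in K-KD or K rep KO, and 1 each in WT and K non-rep KO. The WT and K non-rep KO peaks overlapped, and that of K non-rep KO at chr19:43653564-43654169 had the higher −log10 q, with a fold of 5.16. PLAT, the tissue plasminogen activator, had 2 peaks in EV, 1 each in K-KD, WT and K rep KO, and none in K non-rep KO, and its folds ran from 3.85 in K-KD to 5.21 in EV. MMP1, MMP3, MMP10 and TIMP1 had no peak in any list. A peak of K-KD lay 3.81 kb from MMP3, while the nearest to MMP10 lay 39.2 kb away.

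Of the 4 insulin-like growth factor binding proteins, which hold these hormones in extracellular complexes, IGFBP4 had 2 peaks in EV, 0 in K-KD, 2 in K rep KO, 1 in K non-rep KO and 1 in the WT list. All lay upstream of the gene, at distances of up to 2.56 kb from start to summit. The region at chr17:40440816-40442422 held a peak in each of the 4 lists, with folds from 2.78 in K rep KO to 6.38 in K non-rep KO, and the stretch common to them was centred 1.63 kb upstream. IGFBP7 had 1 peak in EV and 2 in K non-rep KO, and the highest in −log10 q was the EV peak at chr4:57055456-57056030 with a fold of 4.93. IGFBP5 had 1 peak each in EV and K-KD, at different places. IGFBP3 had none.

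Among the growth factors and adhesion genes, ICAM1 had 6 peaks in EV, 3 in K-KD, 6 in K rep KO, 5 in K non-rep KO and 3 in the WT list. Peaks covered 25.6% of its region in EV, 13.4% in K-KD, 38.6% in K rep KO, 12.9% in K non-rep KO and 8.13% in the WT list, so that K rep KO had the widest coverage on the same number of peaks as EV. At its start, whose upstream sequence is printed above, the 387 bases at chr19:10270558-10270944 were covered in all 5 lists, centred 369 bases upstream of the start. Fold enrichment at the summits of these peaks was 5.22 in EV, 5.49 in K-KD, 4.98 in K rep KO, 4.72 in K non-rep KO and 5.24 in the WT list. The pileups were 16, 12, 11, 12 and 11 fragments in that order. These values lie close together but describe different sites. The summits were spread over 1313 bases, and those of EV, K-KD and K rep KO lay outside the common stretch. The peaks also differ in extent. The WT peak was 410 bases wide and reached 75 bases into the start window, while the other 4 covered all of it. The LMNB1 block and this one were the stretches of these genes with a base common to all 5 lists.

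Within ICAM1, WT and both knockout lists shared a peak at chr19:10273154-10273964, with summits within 52 bases of each other and folds between 4.59 and 5.64. EV and K-KD had no peak there. The merged region at chr19:10275840-10278838 held a peak from each list, with folds from 3.17 in K-KD to 7.14 in K rep KO, but no base common to all 5. Past the start, K rep KO had peaks of 1491 and 1960 bases within the gene, the first at chr19:10277348-10278838 with a fold of 7.14 and the highest −log10 q of the gene, 9.6. Beyond the gene, the region at chr19:10287500-10288930 carried peaks in every list but WT and overlaps ICAM4 and ICAM4-AS1. The lncRNA LIMASI overlaps most of the ICAM1 peaks.

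**Figure D4:**
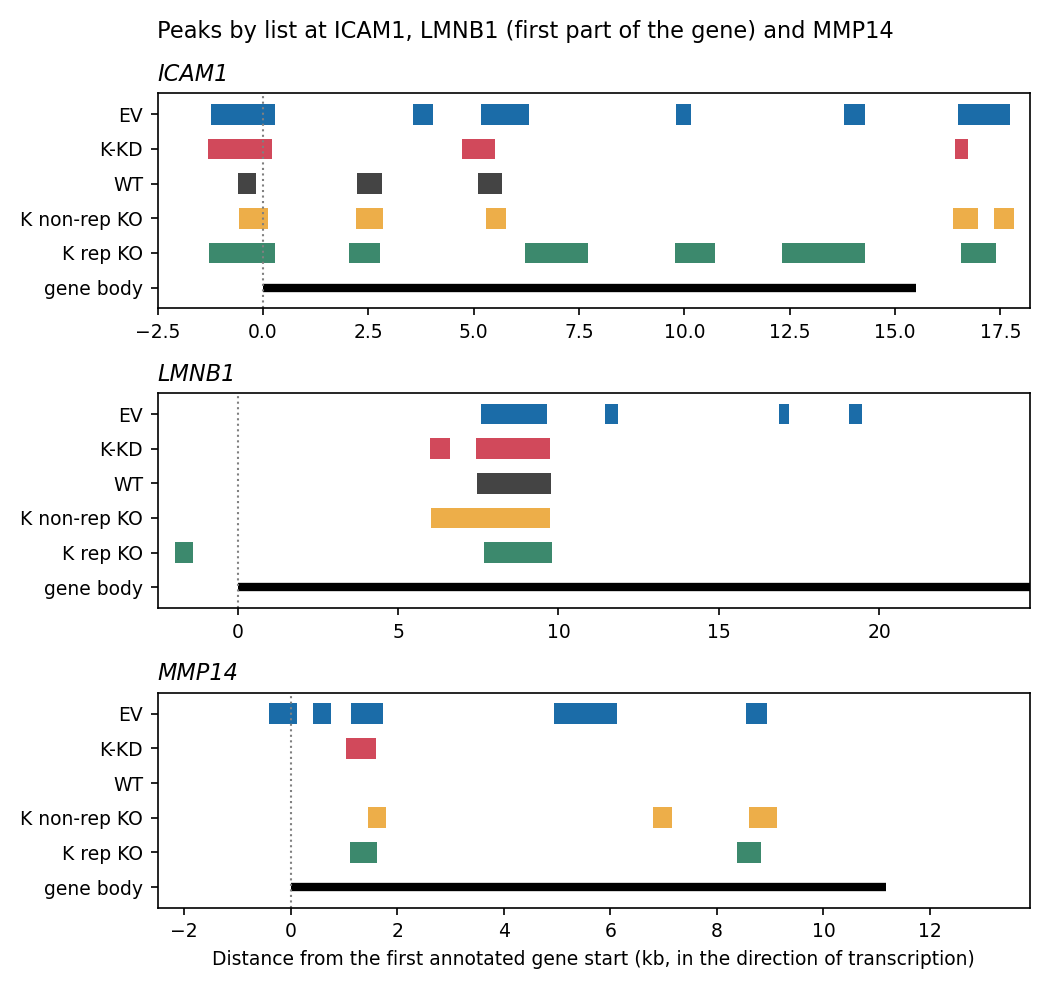
Peaks by list at ICAM1, the first part of LMNB1, and MMP14, as distance in kb from the first annotated start in the direction of transcription, with the gene body as a black bar; each coloured block is 1 peak drawn to scale. The ICAM1 start and a block inside LMNB1 carry a peak in each of the 5 lists, and WT has no peak at MMP14.

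TGFB1, a cytokine that can itself impose arrest, had 6 peaks in EV, 3 in K-KD, 3 in K rep KO, 2 in K non-rep KO and 0 in the WT list. In its later part, the region at chr19:41333092-41335002 held a peak in every list but WT, with folds from 4.01 in K non-rep KO to 6.31 in EV. A further region at chr19:41339552-41341391 was held by EV and both knockout lists, with folds between 4.04 and 5.98. An EV peak (chr19:41354612-41354922) lay upstream of the start, in the neighbouring gene B9D2. VEGFA, an angiogenic factor, had 1 peak each in EV and K-KD, at different places in the gene, and AREG, a ligand of the epidermal growth factor receptor, had 1 in EV. GDF15 and HGF had none, although HGF is 71 kb long.

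The transcription factors of the programme had 8 peaks in EV, 1 in K-KD, 0 in K rep KO, 2 in K non-rep KO and 0 in the WT list. NFKB1, the p50 subunit of NF-κB, had 4 peaks in EV and 1 each in K non-rep KO and K-KD. Its highest in −log10 q was an EV peak of fold 6.96 at chr4:102515144-102515514, 13.4 kb into the gene. RELA, the p65 subunit, had 3 peaks in EV and 1 in K non-rep KO, no 2 of which overlapped, and that of K non-rep KO (chr11:65665112-65666102, fold 4.45) lay upstream over the divergent lncRNA RELA-DT. CEBPB had 1 peak, in EV, in the flank beyond the end of the gene.

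Summits close to a start were few. Among peaks of genes with a start window, 6 of 44 EV summits (13.6%) lay within 1 kb of a start, against 5.22% over protein-coding genes. They belonged to MMP14 (2), SERPINE2, IGFBP4, TGFB1 and ICAM1. The other lists had 0 of 14 in K-KD and 1 each of 6 in WT, of 17 in K non-rep KO and of 20 in K rep KO, each time at ICAM1. The protein-coding shares there were 5.35%, 3.06%, 4.76% and 5.03%. Of all 197 peaks, 159 (80.7%) overlapped the gene body and 38 lay in a flank alone, while 54 also overlapped another annotated gene.

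The knockdown was compared with EV first. In K-KD 18 of the 38 genes had fewer peaks than in EV (47.4%, against 48.8% of protein-coding genes) and 0 had more (against 10.5%). IGFBP5 and VEGFA had the same number in both. In 9 genes, each with 1 to 3 peaks in EV, no peak was left: CDKN1A, IL1A, SERPINE2, PLAUR, IGFBP4, IGFBP7, AREG, RELA and CEBPB. The same count was not made over protein-coding genes, so the loss cannot be called particular to these genes. The largest differences were 24 against 13 in TIMP2 and 5 against 1 in MMP14, followed by SERPINE2, TGFB1, ICAM1, NFKB1 and RELA, each with 3 fewer, and LMNB1, PLAUR and IGFBP4, each with 2 fewer. For none of these single genes did the exact 95% interval of the ratio exclude 1, for example 0.542 (0.253 to 1.11) for TIMP2.

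Over all 38 regions the ratio of K-KD to EV peaks was 0.413 (31 against 75, exact 95% interval 0.263 to 0.636). It was 0.583 over protein-coding regions, which lies within that interval. Intervals and shares cover counting error only, since neighbouring peaks are not independent and there are no replicate lists. With the 30732 strongest peaks of each list by −log10 p, the ratio was 0.783 (0.398 to 1.52), against 0.961 over protein-coding regions. This cut makes the whole lists equal in length, so a move of the ratio toward equality was partly set in advance. Whether list length accounts for the fewer peaks in the knockdown was not tested. Of the K-KD peaks 61.3% overlapped an EV peak (56.6% over protein-coding regions), and of the EV peaks 24% overlapped a K-KD peak (32.6%).

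Against WT, K rep KO had more peaks in 10 of the 38 genes (26.3%, against 44.2% of protein-coding genes) and fewer in 1, PLAUR (2.63%, against 6.49%). TIMP2 had 19 against 8, ICAM1 6 against 3, CDKN2A and TGFB1 3 against 0, and MMP14 2 against 0. CDKN1A, HMGA1, HMGA2, LMNB1 and IGFBP4 each had 1 more. The ratio was 2.73 (41 against 15, 1.48 to 5.32), with 2.37 over protein-coding regions. At equal list length it was 1.73 (0.885 to 3.52), against 1.17. Restricted to −log10 q values of at least 5, the ratio was 5.25 (21 against 4, 1.77 to 21), against 2.08, and 12 of those 21 peaks were in TIMP2 and 4 in ICAM1.

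K non-rep KO had more peaks than WT in 10 genes (26.3%, against 41.6%) and fewer in 1, PLAT (2.63%, against 7.33%). Both knockout comparisons use the same WT list, so their directions are not independent. TIMP2 had 14 against 8, ICAM1 5 against 3, MMP14 3 against 0, and HMGA2, IGFBP7 and TGFB1 2 against 0. Their intervals all included 1, for example 0.685 to 4.81 for TIMP2. CDKN1A, CDKN2A, NFKB1 and RELA each had 1 against 0. The ratio was 2.33 (35 against 15, 1.24 to 4.6), with 2.14 over protein-coding regions. It was 1.07 (0.494 to 2.32) at equal list length, against 1.21 over protein-coding regions, and the cut again moves ratios toward equality by construction. With −log10 q values of at least 5 the ratio was 1.75 (7 against 4, 0.445 to 8.15), against 1.6 over protein-coding regions.

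K rep KO was set against K non-rep KO directly. It had more peaks in 8 genes (21.1%, against 28.4%) and fewer in 6 (15.8%, against 22.2%). CDKN2A had 3 against 1, TIMP2 19 against 14, and IGFBP7 0 against 2, and the other differences were of 1 peak. The intervals of CDKN2A, TIMP2 and IGFBP7 included 1. The ratio was 1.17 (41 against 35, 0.728 to 1.89), with 1.1 over protein-coding regions, and the interval includes 1. At a fold of 4 or more it was 1.48 (31 against 21, 0.822 to 2.7), against 1.14 over protein-coding regions. At equal list length it was 1.62 (26 against 16, 0.839 to 3.24), against 0.962, and both intervals include 1. Among peaks with −log10 q of at least 5 the ratio was 3 (21 against 7, 1.23 to 8.35), against 1.29 over protein-coding regions. These stronger peaks numbered 12 against 3 in TIMP2, 4 against 0 in ICAM1, 2 against 0 in CDKN2A and in TGFB1, and 1 each in LMNB1. HMGA2, MMP14 and IGFBP4 went the other way, each with 0 in K rep KO against 1. They made up 51.2% of the K rep KO peaks and 20% of those of K non-rep KO, against 37.4% and 31.9% over protein-coding regions.

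The 2 controls were also compared, and at the deposited list lengths they differed more in number of peaks than any perturbed list from its control. At equal list length this order did not hold, with 1.53 for EV against WT and 1.73 for K rep KO against WT. EV had more peaks than WT in 20 genes (52.6%, against 60.5%) and fewer in 0 (against 2.89%). The ratio was 5 (75 against 15, 2.85 to 9.37), with 3.78 over protein-coding regions, and at equal list length its interval was 0.766 to 3.16. By gene, TIMP2 had 24 against 8, a ratio of 3 (1.3 to 7.72), and TGFB1 6 against 0, with an interval from 1.18 upward. Both intervals held the protein-coding ratio of 3.78. MMP14 had 5 against 0, CDKN2A and NFKB1 4 against 0, HMGA2, SERPINE2 and RELA 3 against 0, LMNB1 4 against 1, and ICAM1 6 against 3. From MMP14 on, the intervals of these genes included 1. The 31 peaks of K-KD and those of both knockout lists (35 and 41) all lie between the 15 of WT and the 75 of EV. The plot of ratios by comparison sets these differences beside those of protein-coding genes.

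**Figure D5:**
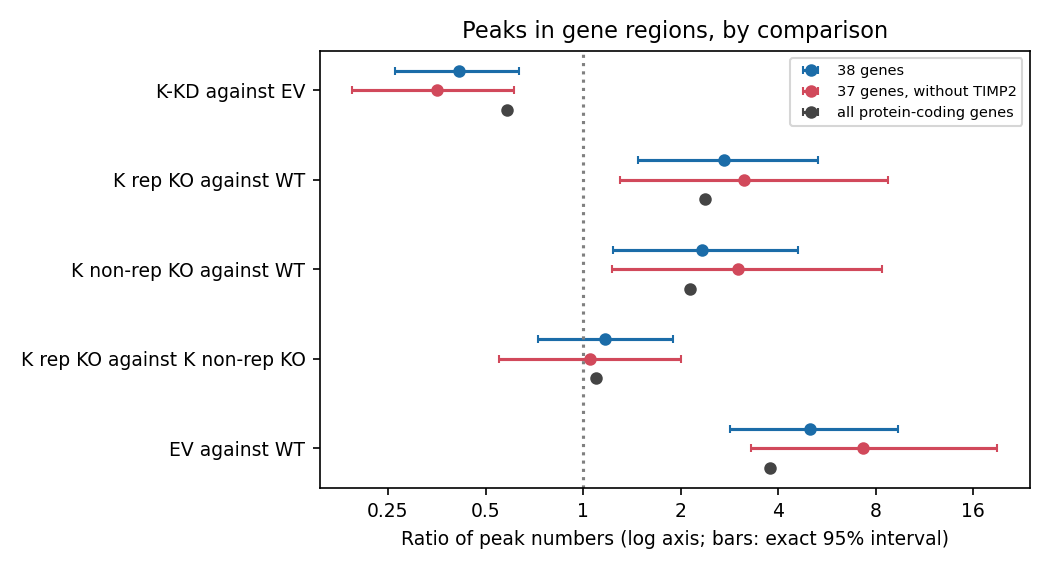
Ratio of the numbers of peaks in gene regions for each comparison (log axis), for the 38 genes, for the 37 genes without TIMP2 and for all protein-coding genes; bars are exact 95% intervals that cover counting error only. K-KD lies below EV at 0.413, both knockout lists lie above WT at 2.73 and 2.33, and EV lies above WT at 5.

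Sharing of positions was set beside that of protein-coding regions. The peaks of the 38 regions merged into 108 regions, of which 66 (61.1%) were held by 1 list and 4 (3.7%) by all 5, against 58.1% and 5.85% for protein-coding genes. The 4 were at the ICAM1 start, within ICAM1, within LMNB1 and within TIMP2. Of the K rep KO peaks 41.5% overlapped a K non-rep KO peak (40.2% over protein-coding regions), and of the K non-rep KO peaks 51.4% overlapped a K rep KO peak (44.2%). Between the controls the shares were below those of protein-coding regions: 10.7% of the EV peaks overlapped a WT peak (Wilson 95% interval 5.5 to 19.7, against 18.6%), and 53.3% of the WT peaks overlapped an EV peak (30.1 to 75.2, against 69.2%). Both intervals include the protein-coding value. Of the WT peaks 53.3% overlapped a K rep KO peak (59.8% over protein-coding regions), and the same share overlapped a K non-rep KO peak (58.3%). Of the K rep KO peaks 22% overlapped a WT peak (25.9%), and of the K non-rep KO peaks 22.9% did (27.7%).

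A further 107 genes of the senescence pathway outside the 38 were examined for context. Of these, 30 had no peak, beside 21.9% of protein-coding genes. Peaks of the 107 numbered 197 in EV, 176 in K-KD, 141 in K rep KO, 147 in K non-rep KO and 69 in the WT list. In K-KD 31 of the 107 had fewer and 26 more peaks than in EV, against 48.8% and 10.5% of protein-coding genes. The 38 genes had 18 fewer and 0 more, a contrast that was not tested. Those with the most peaks included RELB, STAT3, RBL1, JAK1, CGAS, IKBKG, CHEK2, IL6R and MAP3K14. RELB, an NF-κB subunit of the non-canonical pathway, had 10 peaks in EV, 10 in K-KD, 8 in K rep KO, 5 in K non-rep KO and 7 in the WT list. STAT3, which transmits interleukin-6 signals, had 12, 5, 5, 7 and 5 in that order. CGAS, a sensor of cytosolic DNA, had 5, 4, 4, 6 and 5, and IKBKG, a regulatory subunit of the IκB kinase, had its most, 11, in K non-rep KO. K rep KO had more peaks than WT in 48 of the 107 and fewer in 4, against 44.2% and 6.49% of protein-coding genes. K non-rep KO had more in 50 and fewer in 5, against 41.6% and 7.33%.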

How the data were processed

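The tools were Bowtie2, MACS2 and deepTools on GRCh38, per the submitters' processing notes, without versions or settings, and pooling of libraries is not mentioned. Each condition has 1 narrowPeak list made by the authors. The deposited fold enrichment is a ratio of pileup to background at the summit of a peak, with 1 added to both, as its values together with −log10 p show. Its deposited −log10 p and −log10 q describe that summit too. All 3 are the authors' values, used to describe or select the peaks of each list; folds of different lists printed side by side show no change. The list named K-KD stands for KD. Peak names inside both knockout lists carry other prefixes than the list names. A further 1 list matched no sample title and was not used in any step.

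Genes came from a RefSeq table of GRCh38.p14 without exons, so introns and exons were not told apart. A peak counted for a gene at 1 base of overlap with the body plus 2 kb, and the background was the same count over 19974 protein-coding genes. Pileups were solved as whole numbers from fold and −log10 p within 0.001, with a unique solution for all 197 peaks. Ratios of counts have exact (Clopper-Pearson) 95% intervals. With 1 list per condition there is no test and no p-value. The pairing of conditions with controls is not stated in the labels; K-KD was set against EV and the knockouts against WT. The counting was checked on simulated lists (Python 3.11.15, pandas 2.3.3, scipy 1.17.1).

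The genes and lists were chosen with earlier results of these data known. All 38 genes are accounted for: those with 3 or more peaks over the lists are given by list, with coordinates for regions held by 3 or more lists or else for the peak of highest −log10 q (PLAT by number and fold), and genes differing by 2 or more peaks are named in each comparison. Of the pathway genes outside the 38, the 10 with the most peaks were to be named, and 1 of them is not reported here. Alternatives were a −log10 q of 5 or more, a fold of 4 or more, equal list length, no flanks, 5 kb flanks, summits in place of overlap, covered length in place of number, leaving out the genes on chromosome 11, for shared peaks an overlap of 50% of the shorter peak or a summit inside the other peak, and, added after seeing the data, leaving out TIMP2.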

Additional observations from a re-analysis of the deposited data

Results flagged for a closer look

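In the 38 gene regions the perturbed lists moved in opposite directions from their controls. K-KD had 0.413 times as many peaks as EV, while K rep KO had 2.73 times and K non-rep KO 2.33 times as many as WT. All protein-coding regions ran the same way, at 0.583, 2.37 and 2.14, values that lie within the intervals of the 38 genes. The difference between the knockdown's direction and those of the knockouts was not tested, since each condition has 1 list. EV had 5 times as many peaks as WT in these regions, and the part of that difference in the opposite directions was not tested.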

How the results depend on the processing

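No paired analysis was possible because each condition has 1 list. Of 100 alternative values for 20 results, 88 stayed within the interval of a ratio or share or within 1.5 times a number of genes. A further 12 moved and 0 reversed direction, which only a ratio could do, not a number of genes or a share. Some of the 88 could not move. Equal list length leaves the WT list as it is, and leaving out TIMP2 lowers a number of genes by only 1. With the same number of peaks in each list (30732, the length of WT), the ratio of EV to WT peaks was 1.53, that of K non-rep KO to WT 1.07 and that of K-KD to EV 0.783, and genes with a peak numbered 11 in EV, 7 in K rep KO and 7 in K-KD. With −log10 q of 5 or more, the ratio of K rep KO to K non-rep KO was 3, and genes with a peak numbered 12 in EV, 3 in K-KD and WT, and 5 in both knockout lists. Leaving out TIMP2, chosen after seeing the data, gave ratios of 0.353 for K-KD to EV, 3.14 for K rep KO to WT, 3 for K non-rep KO to WT, 1.05 for K rep KO to K non-rep KO and 7.29 for EV to WT. The pileup at the summit of a peak in these regions was 6 to 32 fragments. For genes differing by 2 or more peaks, the exact interval of the ratio included 1, except TIMP2 and TGFB1 in EV against WT. Those intervals both held 3.78, the ratio of EV to WT over protein-coding regions. Differences of 1 or 2 peaks in a gene, and most larger ones, thus lay within counting error.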
